A study of Arabidopsis thaliana with 12 samples.

Results

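The UDP-glycosyltransferases (UGT) and glutathione transferases (GST) of Arabidopsis were followed in shoots of 18-d-old seedlings on 12 ATH1 arrays, 3 for each of 4 genotypes. Members were all genes whose symbol or synonym starts with UGT, GSTF, GSTU, GSTL, GSTT or GSTZ followed by a number, in the array annotation or the gene reference, with 1 probe set per gene. The rule used no measured value. It found 42 members, 33 UGT and 9 GST genes, among 16764 probe sets, of which 9267 carry the name of a single gene. The GST genes comprised 7 of the tau class (GSTU), 1 of the phi class (GSTF4) and 1 of the lambda class (GSTL3), with no theta or zeta member. The gene reference names 112 genes by the same rule (64 UGT and 48 GST), and those beyond the 42 were not analysed here, either for want of a probe set with a single gene name or because of the detection filter described next.

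The genotypes were the wild type, brm-1, ga1-3 and the double mutant ga1-3/brm-1, all in the Col-0 ecotype and grown on MS medium. BRM is the ATPase of a SWI/SNF chromatin remodeling complex, and brm-1 is a null allele. GA1 acts at an early step of gibberellin synthesis, so ga1-3 plants lack most gibberellin. The comparisons ask which transcripts depend on BRM, which on gibberellin, and whether the dependence on one changes when the other is lost. The paper also reports less active gibberellin than in the wild type in another brm null allele, measured in older plants grown in soil. A change in brm-1 can thus include a part due to low gibberellin, and this part was not tested. Plants homozygous for brm-1 are sterile and were picked by genotyping from segregating families, whereas ga1-3 came from another ecotype by introgression into Col-0 and can carry linked DNA near GA1. On the chromosome of GA1 lie UGT72B1, UGT84A3, UGT84A4 and UGT73B1, with 196, 1125, 1126 and 3204 protein-coding genes between them and GA1. How far such linked DNA reaches was not tested. Seeds of the ga1-3 lines were soaked in gibberellin and rinsed before sowing, so ga1-3 and the double mutant, but not the wild type or brm-1, had this treatment. All values are log2 signals. They had been processed by GC-RMA, a background correction and normalization that uses the base composition of the probes. The authors kept only probe sets detected on at least 1 of the 3 arrays of a genotype, so a member can be in the table through the genotype in which it is high.

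UGT enzymes join a sugar, mostly glucose from UDP-glucose, to hormones, phenolic compounds, sterols and foreign chemicals, which usually inactivates them, makes them soluble or prepares them for storage in the vacuole. GST enzymes of the tau and phi classes join glutathione to reactive compounds, and ABCC transporters carry the conjugates into the vacuole. Many genes of both families are induced by stress and xenobiotics, and several UGT enzymes set the pool of active cytokinin, auxin, abscisic acid or salicylate.

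On the arrays, BRM itself measured 7.88 ± 0.06 on the log2 scale for the wild type (SD, n = 3) and 8.14 ± 0.19 for ga1-3, against 2.89 ± 0.11 for brm-1 and 2.88 ± 0.14 for the double mutant. The GA1 probe set was not named here. Of the marker lists, 1 of 6 green shoot markers was named, RCA, at 14.28 in the wild type and 13.88 to 14.46 in the mutants. None of 6 root markers was named. Flower markers SEP3 and PI, 2 of 5 listed and both named through the study's tables of changed genes, had mean signals of 5.12 to 8.26 and 5.07 to 6.33. SEP3 fell in ga1-3 against the wild type, with a log2 difference of -2.1 ± 0.44 (SE, adjusted p 0.0119), and was higher in the double mutant than in ga1-3 by 2.5 ± 0.44 (adjusted p 0.00194). PI was lower in the double mutant than in the wild type (-0.93 ± 0.27, adjusted p 0.0198), ga1-3 (-0.98 ± 0.27, 0.0179) and brm-1 (-1.26 ± 0.27, 0.0129). The part of flower tissue in the members' values was not tested. In whole shoots, fewer cells of a type and less RNA per cell cannot be told apart. Replicate 3 of brm-1 and replicate 3 of ga1-3 deviated most from their genotype means, by 0.192 and 0.182 on average over all probe sets, against 0.115 to 0.149 for the other 10. Replicate 3 of ga1-3 also had the widest gap between the 3' and 5' probe sets of the actin control, 2.16 on the log2 scale, against 1.10 to 1.90 elsewhere.

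A member was called changed when limma, with genotype as the sole factor over the 12 arrays, gave a Benjamini-Hochberg adjusted p under 0.05 over all probe sets and a fold change over 1.5. Log2 fold changes are given with their standard error, and mean signals with the SD of 3 arrays. In brm-1 against the wild type 13 of 42 members changed, 6 up and 7 down, which is 31.0% of them where 14.7% of all probe sets were called (7.09% up and 7.58% down). The rises were those of GSTU20, GSTU23, UGT72B1, UGT73B1, UGT76C2 and UGT87A2, and the falls those of UGT71C2, UGT71C4, UGT78D2, UGT84A3, UGT85A2, UGT85A4 and UGT85A5. In ga1-3 against the wild type 6 members changed, or 14.3% against 8.79% of all probe sets (4.06% up and 4.74% down). GSTU16, GSTU20, UGT73B1, UGT76C2 and UGT84A3 rose and UGT78D1 fell. In the double mutant against the wild type 19 members changed, 13 up and 6 down, or 45.2% against 23.6% (12% up and 11.6% down). These 3 comparisons share the wild-type arrays.

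The double mutant was also set against each single mutant. Against ga1-3, 17 members changed, 12 up and 5 down, or 40.5% where 20.8% of all probe sets were called (10.8% up and 10.1% down). Against brm-1, 6 members changed, 5 up and 1 down, or 14.3% against 8.76% (4.98% up and 3.78% down). Among probe sets with a single gene name, the share called was 13.3% for brm-1, 8.07% for ga1-3 and 22.3% for the double mutant, each against the wild type, and 19.8% and 7.97% in the double mutant against ga1-3 and brm-1. In none of these comparisons did a GST gene fall by both thresholds in limma. At an unadjusted p under 0.05, 2 of the 9 GST genes were lower in the double mutant than in ga1-3, where 23.4% of all probe sets were, 1 was lower than in brm-1 (15.1%), and 0 were lower in brm-1 (17.1%), ga1-3 (13.2%) or the double mutant (23.6%) against the wild type.

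**Figure D1:**
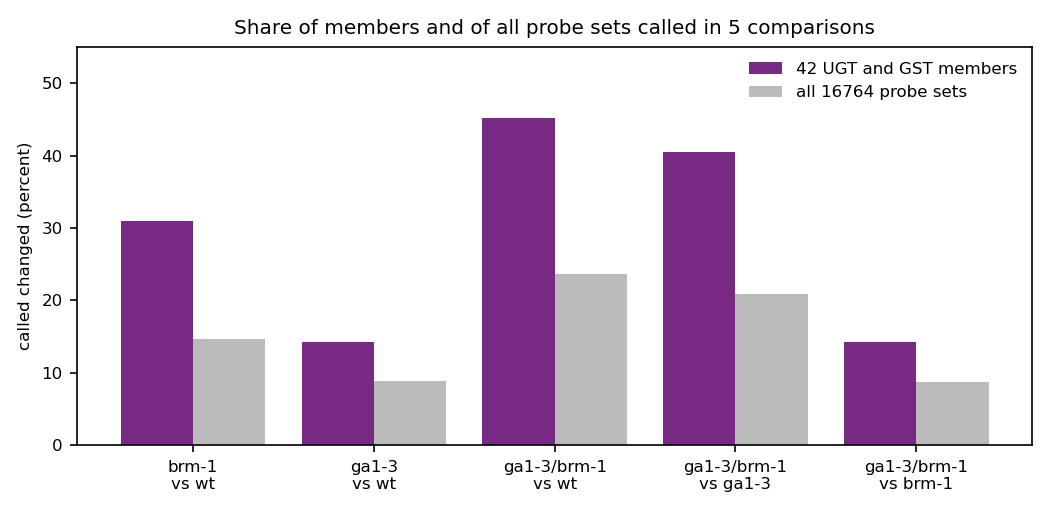
Bars give the percent of the 42 members (purple) and of all 16764 probe sets (grey) called changed in each of the 5 comparisons. The members' bars run from 14.3% to 45.2% and the grey bars from 8.76% to 23.6%.

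The median absolute log2 difference over the 42 members was 0.39 in brm-1 against 0.21 over all probe sets, 0.19 against 0.19 in ga1-3, and 0.46 against 0.30 in the double mutant. For the double mutant it was 0.58 against 0.28 relative to ga1-3 and 0.34 against 0.20 relative to brm-1. The median of the members' signed differences was 0.26 for the double mutant relative to brm-1, against -0.026 over all probe sets. For that pair 14 members were higher and 5 lower at an unadjusted p under 0.05 in limma. Of all probe sets, 14.2% were higher and 15.1% lower by the same measure. For each of the remaining comparisons the members' median lay between -0.01 and 0.06, and that of all probe sets between -0.033 and 0.02. Arrays of both genotypes did not overlap for 22 members in brm-1 (39.4% of all probe sets), 14 in ga1-3 (33.9%) and 25 in the double mutant (53.3%), each against the wild type. For the double mutant they did not overlap for 23 members against ga1-3 (48.4%) and 15 against brm-1 (34.6%).

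**Figure D2:**
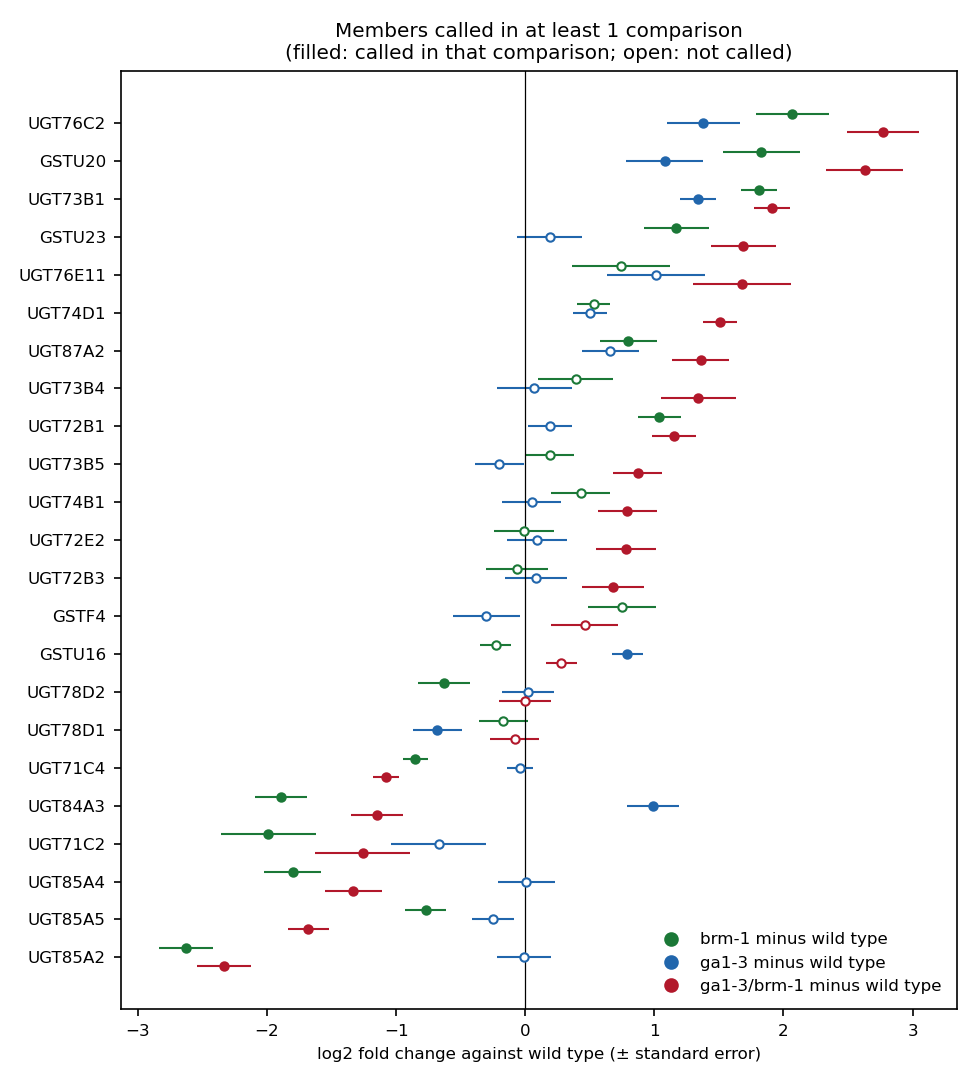
Points give the log2 fold change against the wild type and bars its standard error, for the 23 members called in at least 1 of the 5 comparisons, ordered by the double mutant. Values run from -2.63 for UGT85A2 in brm-1 to 2.77 for UGT76C2 in the double mutant, and UGT84A3 lies below 0 in brm-1 and the double mutant but above 0 in ga1-3.

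Among genes that conjugate hormones, the cytokinin N-glucosyltransferase UGT76C2, which inactivates cytokinins, rose in every mutant. Its signals on the 3 arrays were 5.49, 5.04 and 5.24 in the wild type, 7.13, 6.96 and 7.89 in brm-1, 6.94, 6.95 and 6.01 in ga1-3, and 7.91, 8.12 and 8.04 in the double mutant. No mutant array overlapped the wild-type arrays, and all 3 double mutant arrays lay above every array of the single mutants. The log2 fold changes against the wild type were 2.07 ± 0.28 in brm-1 (adjusted p 0.000652), 1.38 ± 0.28 in ga1-3 (0.0103) and 2.77 ± 0.28 in the double mutant (5.48e-05), or 4.20-fold, 2.60-fold and 6.80-fold. UGT76C1, its neighbour on chromosome 5 and also a cytokinin N-glucosyltransferase, was measured at 6.05, 6.28, 6.15 and 5.95 in the wild type, brm-1, ga1-3 and the double mutant, and passed no test, with log2 fold changes of 0.23 ± 0.20, 0.10 ± 0.20 and -0.09 ± 0.20 in the mutants. Of 3 cytokinin genes listed, these 2 were measured.

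UGT74D1, which glucosylates auxins, was the 1 measured gene of 5 listed for auxin, and its rise passed both thresholds only in the comparisons with the double mutant. The signals were 8.47, 8.17 and 8.26 in the wild type, 8.80, 9.05 and 8.65 in brm-1, 8.85, 8.85 and 8.70 in ga1-3, and 10, 9.64 and 9.79 in the double mutant. Each mutant lay above the wild type without overlap, and the double mutant lay above the other 3 genotypes. The log2 fold change was 1.51 ± 0.13 in the double mutant against the wild type (adjusted p 2.32e-05), 1.01 ± 0.13 against ga1-3 and 0.98 ± 0.13 against brm-1. The single mutants had 0.53 ± 0.13 for brm-1 (adjusted p 0.0163) and 0.50 ± 0.13 for ga1-3 (0.0313), which is under the fold threshold. The interaction of both mutations was 0.47 ± 0.19 (adjusted p 0.143), so the rise in the double mutant was not separated from the sum of both single effects.

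The abscisic acid glucosyltransferases UGT71C5 and UGT71B6 (2 of 4 genes listed for abscisate and brassinosteroids) were not called. UGT71C5 had log2 fold changes of -0.39 ± 0.11 in brm-1 (adjusted p 0.0254), 0.04 ± 0.11 in ga1-3 and -0.35 ± 0.11 in the double mutant (0.0245), under the fold threshold, and -0.40 ± 0.11 in the double mutant against ga1-3 (0.0161). UGT71B6 was near background, which here means a genotype mean under 4.58, the 25th percentile of the table, and had signals of 2.29 to 2.51. UGT76B1, which acts on salicylate and isoleucic acid and was the 1 measured gene of 3 listed for salicylate, was near background as well. Its log2 fold change was largest in the double mutant, at 0.64 ± 0.26 (adjusted p 0.0725).

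The phenylpropanoid pathway gives rise to hydroxycinnamates, monolignols and flavonoids. UGT84A3, which forms glucose esters of hydroxycinnamates, moved in opposite directions in the single mutants. The signals were 6.10, 5.90 and 5.93 in the wild type, 3.94, 3.79 and 4.52 in brm-1, 6.99, 7.18 and 6.71 in ga1-3, and 4.96, 4.53 and 4.98 in the double mutant. None of the 4 genotypes overlapped another, and the brm-1 mean of 4.09 was near background. How far this altered the size of the difference was not tested. The log2 fold change against the wild type was -1.89 ± 0.20 in brm-1 (adjusted p 0.000155), 0.99 ± 0.20 in ga1-3 (0.00948) and -1.15 ± 0.20 in the double mutant (0.00133). Relative to ga1-3 the double mutant was lower by a log2 difference of -2.14 ± 0.20 (6.01e-05), and relative to brm-1 it was higher by 0.74 ± 0.20 (0.0337). The last call was lost in 5 of the 12 fits that left out 1 array, those without wild-type replicate 3, brm-1 replicate 1 or 2, or double mutant replicate 1 or 3, and the value ran from 0.59 to 0.96 over the 12. The interaction was -0.25 ± 0.28 (adjusted p 0.638).

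The monolignol glucosyltransferase UGT72E1 was measured at 9.17, 8.65, 8.85 and 8.87 in the wild type, brm-1, ga1-3 and the double mutant and was not called, with -0.51 ± 0.19 in brm-1 (adjusted p 0.0741). UGT72E2, which acts on monolignols too, was near background in every genotype. Its values were 2.1 to 2.13 in the wild type, 2.1 to 2.11 in brm-1, 2.04 to 2.45 in ga1-3, and 3.32, 2.23 and 3.14 in the double mutant, so that double mutant replicate 2 fell within the range of ga1-3. It was called higher in the double mutant against each other genotype (log2 fold changes of 0.69 to 0.79), and those calls were lost in 5 to 11 of the 12 fits without 1 array. Of 6 sinapate and monolignol genes listed, these 2 and UGT84A3 were measured.

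For flavonoids 2 of 7 listed genes were measured, UGT78D1, a flavonol 3-O-rhamnosyltransferase, and UGT78D2, a flavonoid 3-O-glucosyltransferase. UGT78D1 had signals of 6.98, 7.44 and 7.33 in the wild type, 6.69, 7.17 and 7.40 in brm-1, 6.62, 6.57 and 6.52 in ga1-3, and 6.93, 7.18 and 7.41 in the double mutant. The ga1-3 arrays lay below all others. UGT78D1 fell in ga1-3 with a log2 fold change of -0.68 ± 0.19 (adjusted p 0.0384) and was higher in the double mutant than in ga1-3 by 0.60 ± 0.19 (0.0311). The calls were lost in 7 and 5 of the 12 fits without 1 array. UGT78D2 fell in brm-1, with -0.63 ± 0.20 (adjusted p 0.049), at signals near background, and this call was lost in 9 of 12.

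Both measured genes of the 6 on the glucosinolate list were higher in the double mutant than in the wild type. GSTU20, a tau class glutathione transferase that is co-expressed with glucosinolate synthesis, was at 8.02, 8.78 and 8.12 in the wild type, 10.09, 10.44 and 9.87 in brm-1, 9.66, 9.66 and 8.85 in ga1-3, and 10.90, 10.52 and 11.40 in the double mutant. Every mutant array lay above the wild type, and every double mutant array above those of both single mutants. Relative to the wild type GSTU20 rose by 1.83 ± 0.30 in brm-1 on the log2 scale (adjusted p 0.00178), 1.08 ± 0.30 in ga1-3 (0.0373) and 2.63 ± 0.30 in the double mutant (9.9e-05). The call in ga1-3 was lost without wild-type replicate 1 or 3, ga1-3 replicate 1 or 2, or double mutant replicate 1, and the value ran from 0.94 to 1.35 over the 12 fits.

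UGT74B1, the S-glucosyltransferase that makes the glucosinolate core, had 8.48, 8.92 and 8.66 in the wild type, 8.75, 8.97 and 9.62 in brm-1, 8.75, 8.73 and 8.71 in ga1-3, and 9.28, 9.22 and 9.91 in the double mutant. The double mutant lay above the wild type and ga1-3, and overlapped brm-1. The log2 fold change was 0.79 ± 0.23 against the wild type (adjusted p 0.0227) and 0.74 ± 0.23 against ga1-3 (0.0319). These calls were lost in 3 and 4 of the 12 fits, without double mutant replicate 3 in both cases (0.57 and 0.52), without wild-type replicate 1 or 3 in the first and without any 1 of the 3 ga1-3 arrays in the second.

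**Figure D3:**
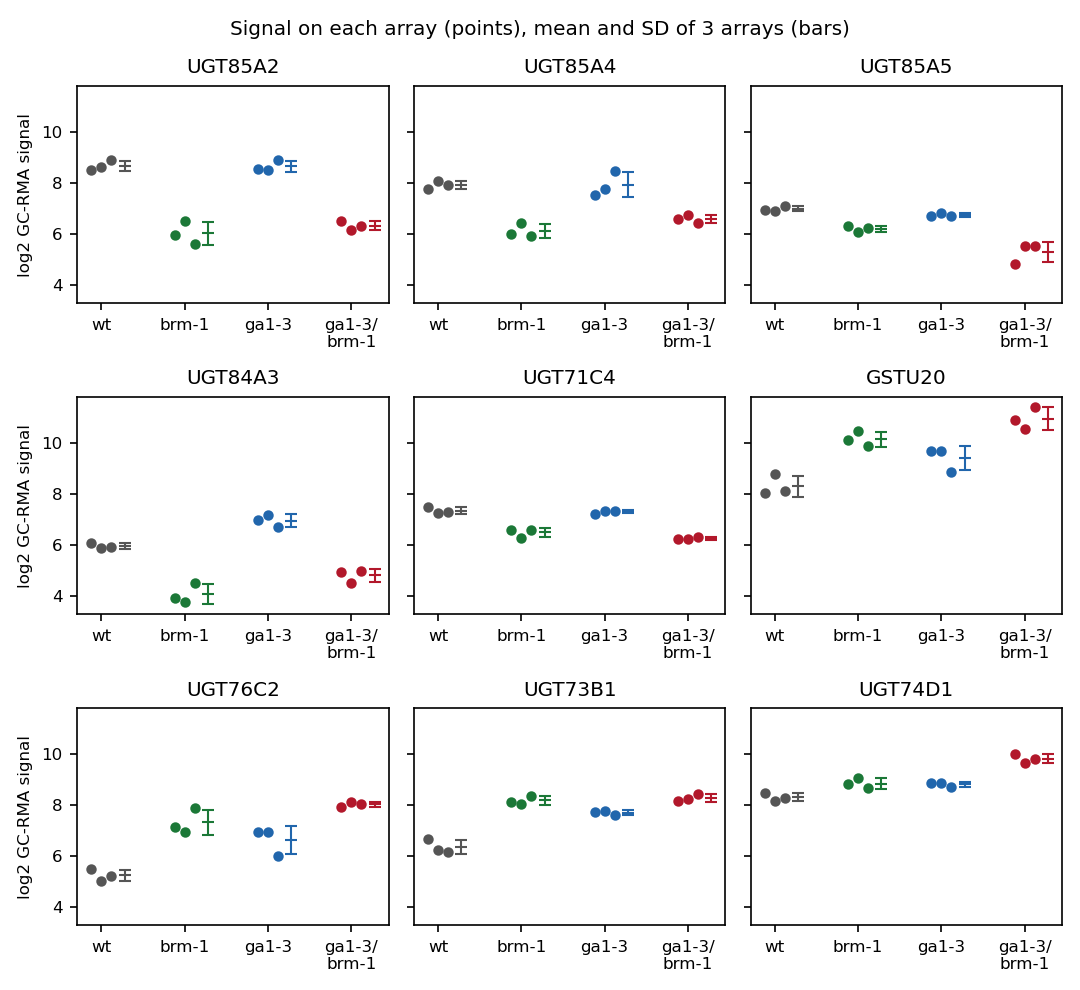
Points give the log2 signal of each array in each genotype for 9 members, and bars the mean and SD of 3 arrays. UGT85A2, UGT85A4, UGT85A5 and UGT71C4 lie lower in both genotypes with brm-1, GSTU20, UGT76C2 and UGT73B1 lie higher in all mutants, and levels of different genes are not comparable.

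Of the 4 UGT85A genes 3 fell with brm-1, and UGT85A2 had the largest fall of any member in brm-1 against the wild type. It had signals of 8.49, 8.62 and 8.88 in the wild type and 8.56, 8.50 and 8.88 in ga1-3, against 5.96, 6.52 and 5.61 in brm-1 and 6.51, 6.15 and 6.31 in the double mutant. Both genotypes with brm-1 lay below both without it, and within each pair the arrays overlapped. The fall in brm-1 was 6.19-fold (log2 fold change -2.63 ± 0.21, adjusted p 3.56e-05), and the double mutant was lower than ga1-3 by 4.99-fold (-2.32 ± 0.21, adjusted p 5.68e-05). In ga1-3 the value was -0.01 ± 0.21, an estimate near 0 with an adjusted p of 0.98.

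UGT85A4 was likewise lower in both genotypes with brm-1. It had 7.77, 8.07 and 7.93 in the wild type and 7.54, 7.78 and 8.48 in ga1-3, and 6.02, 6.43 and 5.92 in brm-1 and 6.61, 6.74 and 6.44 in the double mutant. The log2 fold changes against the wild type were -1.80 ± 0.22 in brm-1 (adjusted p 0.000368) and -1.33 ± 0.22 in the double mutant (0.00111), with 0.01 ± 0.22 in ga1-3. UGT85A5 had 6.96, 6.91 and 7.10 in the wild type, 6.32, 6.09 and 6.24 in brm-1, 6.70, 6.82 and 6.70 in ga1-3, and 4.85, 5.53 and 5.54 in the double mutant. Here the double mutant lay below brm-1, by a log2 difference of -0.91 ± 0.16 (adjusted p 0.00622), and it was the 1 member that fell in that comparison. The fall against the wild type was -0.77 ± 0.16 in brm-1 (0.00805) and -1.68 ± 0.16 in the double mutant (4.43e-05). The interaction for UGT85A5 was -0.66 ± 0.23 (adjusted p 0.106). UGT85A3, the last of the 4 UGT85 members, was near background at 1.85 to 2.14.

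In the UGT71 group, UGT71C4 and UGT71C2 fell. UGT71C4 was at 7.49, 7.24 and 7.30 in the wild type and 7.23, 7.34 and 7.34 in ga1-3, against 6.6, 6.30 and 6.59 in brm-1 and 6.24, 6.23 and 6.34 in the double mutant. Its log2 fold change was -0.85 ± 0.10 in brm-1 (adjusted p 0.000323), -1.08 ± 0.10 in the double mutant (3.77e-05) and -0.04 ± 0.10 in ga1-3. UGT71C2 was near background in all genotypes, at 4.47, 3.76 and 4.34 in the wild type, 1.88, 2.86 and 1.87 in brm-1, 2.95, 3.27 and 4.36 in ga1-3 and 2.81, 2.89 and 3.10 in the double mutant. It fell in brm-1 (log2 difference -1.99 ± 0.37, adjusted p 0.00377) and the double mutant (-1.26 ± 0.37, adjusted p 0.0214), and the latter call was lost without wild-type replicate 1 or 3 or double mutant replicate 1 or 2 (range over the 12 fits -1.47 to -1.12).

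Of 17 genes listed for stress-inducible detoxification only UGT72B1, UGT73B1 and UGT73B5 were measured under a single gene name, and all 3 were higher in the double mutant than in the wild type. UGT73B1, which in vitro accepts abscisic acid and flavonoids, had 6.67, 6.23 and 6.18 in the wild type, 8.13, 8.04 and 8.36 in brm-1, 7.71, 7.78 and 7.61 in ga1-3, and 8.17, 8.22 and 8.44 in the double mutant. All mutants lay above the wild type, and the double mutant overlapped brm-1. The log2 fold changes were 1.81 ± 0.14 in brm-1 (adjusted p 2.96e-05), 1.34 ± 0.14 in ga1-3 (0.000325) and 1.91 ± 0.14 in the double mutant (9.41e-06). The rise in the double mutant was smaller than the sum of both single effects, with an interaction of -1.24 ± 0.20 (adjusted p 0.00742). Against ga1-3 the double mutant was higher by 0.58 ± 0.14 (0.0108), just under the fold threshold of 0.585 on the log2 scale.

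UGT72B1, which conjugates chlorinated phenols and anilines and also monolignols, rose with brm-1 and not measurably with ga1-3. It had 5.99, 6.02 and 5.58 in the wild type and 6.07, 6.12 and 5.96 in ga1-3, and 6.81, 6.94 and 6.96 in brm-1 and 6.88, 6.76 and 7.40 in the double mutant. Differences from the wild type on the log2 scale were 1.04 ± 0.17 in brm-1 (adjusted p 0.00155), 0.19 ± 0.17 in ga1-3 (0.518) and 1.15 ± 0.17 in the double mutant (0.000436). The stress-inducible neighbours UGT73B5 and UGT73B4 on chromosome 2 rose only in comparisons with the double mutant. UGT73B5 had 5.76, 5.52 and 5.78 in the wild type, 5.81, 5.97 and 5.87 in brm-1, 4.95, 5.82 and 5.68 in ga1-3, and 6.68, 6.59 and 6.40 in the double mutant, above all other arrays. Its log2 fold change in the double mutant was 0.87 ± 0.19 against the wild type (adjusted p 0.00555), 1.07 ± 0.19 against ga1-3 (0.00219) and 0.68 ± 0.19 against brm-1 (0.0428). The last call was lost in 9 of the 12 fits without 1 array.

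UGT73B4 was near background in all genotypes, at 2.17 to 2.33 in the wild type, 2.35 to 3.16 in brm-1, 2.24 to 2.43 in ga1-3, and 4.27, 3.03 and 3.51 in the double mutant. It rose in the double mutant by 1.34 ± 0.29 against the wild type (adjusted p 0.0043) and 1.27 ± 0.29 against ga1-3 (0.00676), on the log2 scale. The call against brm-1 (0.95 ± 0.29, 0.0498) was lost in 10 of 12. For UGT73B4 and UGT73B5 the interaction was 0.88 ± 0.40 and 0.88 ± 0.27 (adjusted p 0.202 and 0.0759), so neither was shown to exceed the sum of both single effects.

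Outside these lists, UGT87A2, which affects flowering time through FLC, rose with brm-1. Its signals were 7.18, 7.05 and 7.55 in the wild type, 8.18, 7.70 and 8.30 in brm-1, 7.66, 8.29 and 7.81 in ga1-3, and 8.91, 8.49 and 8.45 in the double mutant. The log2 fold changes were 0.80 ± 0.22 in brm-1 (adjusted p 0.0246), 0.66 ± 0.22 in ga1-3 (0.0714) and 1.36 ± 0.22 in the double mutant (0.000847). The call in brm-1 was lost without wild-type replicate 1 or 2 or brm-1 replicate 1 or 3 (range 0.68 to 0.99), and that in the double mutant in no fit. UGT76E11 rose in the double mutant by a log2 fold change of 1.68 ± 0.38 (adjusted p 0.0061), from 4.21, 3.71 and 3.69 in the wild type, which is near background, to 5.31, 5.59 and 5.73, and had 0.74 ± 0.38 in brm-1 and 1.01 ± 0.38 in ga1-3, neither of which passed the test. In UGT72B3 the double mutant had 5.28, 6.18 and 6.27 against 5.11, 5.53 and 5.05 in the wild type. These overlapped, and the call (0.68 ± 0.24, adjusted p 0.0492) was lost in 9 of 12.

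Among the GST genes other than GSTU20, GSTU23 rose with brm-1, at signals near background. It had 2.69, 2.66 and 2.70 in the wild type and 2.56, 2.67 and 3.38 in ga1-3, and 3.74, 3.48 and 4.35 in brm-1 and 4.57, 4.14 and 4.42 in the double mutant. Both genotypes with brm-1 lay above both without it. The log2 fold changes were 1.17 ± 0.25 in brm-1 (adjusted p 0.00733), 0.19 ± 0.25 in ga1-3 (0.688), 1.69 ± 0.25 in the double mutant (0.000466), and 1.51 ± 0.25 in the double mutant against ga1-3 (0.00122). How far the background correction altered differences at such low signals, in either direction, was not tested.

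GSTU16 was the 1 member that rose in ga1-3 and was called in no other comparison. Its signals were 7.75, 7.89 and 7.91 in the wild type, 7.60, 7.39 and 7.86 in brm-1, 8.56, 8.63 and 8.74 in ga1-3, and 7.98, 8.21 and 8.21 in the double mutant. The ga1-3 arrays lay above all others. The rise was 0.79 ± 0.12 on the log2 scale (adjusted p 0.00248), and the double mutant was lower than ga1-3 (-0.51 ± 0.12, adjusted p 0.00932), under the fold threshold. The interaction was -0.28 ± 0.17 (adjusted p 0.355). GSTF4, of the phi class, was higher in the double mutant than in ga1-3 by 0.76 ± 0.26 (adjusted p 0.0417), a call lost in 7 of the 12 fits and with ga1-3 near background at 4.40 ± 0.26, and had 0.75 ± 0.26 in brm-1 against the wild type (0.0604).

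The effect of brm-1 could be measured in 2 separate sets of arrays, brm-1 against the wild type and the double mutant against ga1-3. All 13 members called in the first pair had the same sign in the second, as had 88.9% of all probe sets called in the first, and 10 were called there in the same direction, or 76.9%, where 51.3% of all probe sets called in the first pair were. These 10 are 58.8% of the 17 called in the second pair, against 36.1% of all probe sets. Over the 42 members the log2 differences of both pairs had a Pearson correlation of 0.83 and a Spearman correlation of 0.70, and over all 16764 probe sets 0.55 and 0.51. These correlations run across genes, which are not independent replicates. UGT73B1, UGT71C2 and UGT78D2 were called in the first pair alone, with 0.58, -0.59 and -0.02 in the second. The same was done for ga1-3 against the wild type and the double mutant against brm-1. Of the 6 members called in the first of these pairs, 5 had the same sign in the second, or 83.3% against 73.7% of all probe sets. Only UGT84A3 was called in the second in the same direction, or 16.7% against 26.3% of all probe sets. The correlations were 0.35 and 0.38 over the members and 0.31 and 0.20 over all.

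**Figure D4:**
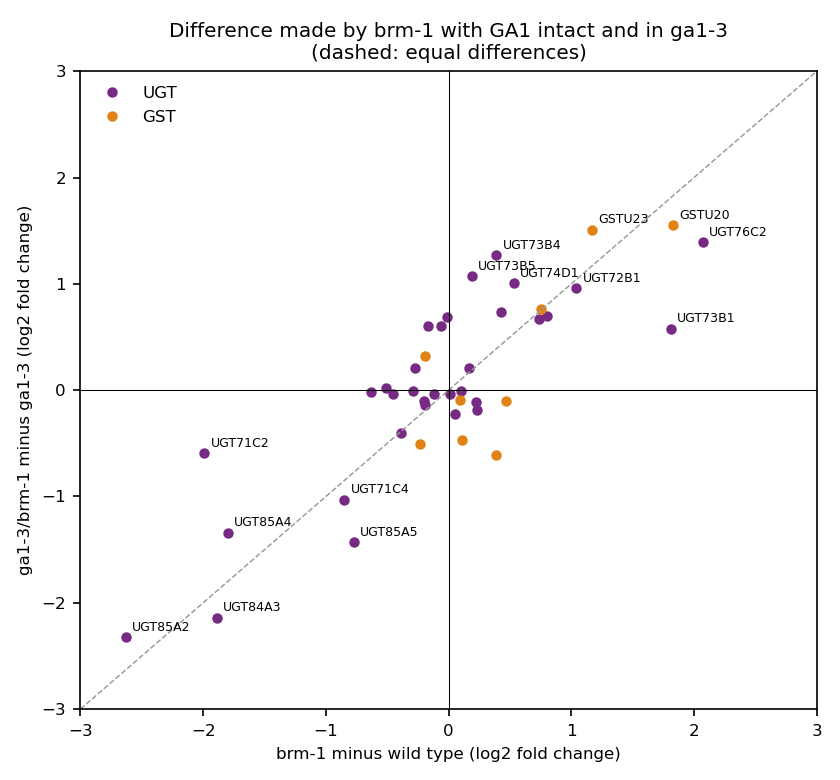
Each point is 1 of the 42 members, with the log2 fold change of brm-1 against the wild type on the x axis and of the double mutant against ga1-3 on the y axis. UGT85A2 (-2.63 and -2.32) and UGT84A3 (-1.89 and -2.14) lie at the lower left, GSTU20 (1.83 and 1.55) and UGT76C2 (2.07 and 1.39) at the upper right, and UGT73B1 (1.81 and 0.58) below the dashed line of equal differences.

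The test of the interaction asked whether the effect of brm-1 differs with and without ga1-3. By the adjusted p alone it called 1 of 42 members, UGT73B1, or 2.4%, where 8.90% of all probe sets were called. At an unadjusted p under 0.05 there were 10 members, where 25.4% of all probe sets passed. The count was 4 without brm-1 replicate 3, 3 without ga1-3 replicate 3 or double mutant replicate 2, and 2 without ga1-3 replicate 2, brm-1 replicate 2 or double mutant replicate 1. UGT73B1 was called in all 12 fits, with -1.39 to -1.15.

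Several members lie side by side in the genome, as ordered in the TAIR10.1 annotation. UGT85A2, UGT85A5 and UGT85A3 follow each other on chromosome 1 with 0 protein-coding genes between, and the first and second fell with brm-1 while UGT85A3 was near background. Also on chromosome 1, UGT85A4 lies 4 genes from GSTU23, which is next to GSTU22, and GSTU20 follows after 1 gene. In brm-1 UGT85A4 fell (-1.80), GSTU23 and GSTU20 rose (1.17 and 1.83) and GSTU22, near background, had 0.09 ± 0.08, all on the log2 scale. Adjacent UGT71C5 and UGT71C4 had -0.39 and -0.85 in brm-1. UGT84A4, next to UGT84A3 on chromosome 4, was near background at 1.85 to 2.01, with a log2 difference of -0.12 ± 0.09 in brm-1. How far a probe set also binds transcripts of a related neighbour was not tested.

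**Figure D5:**
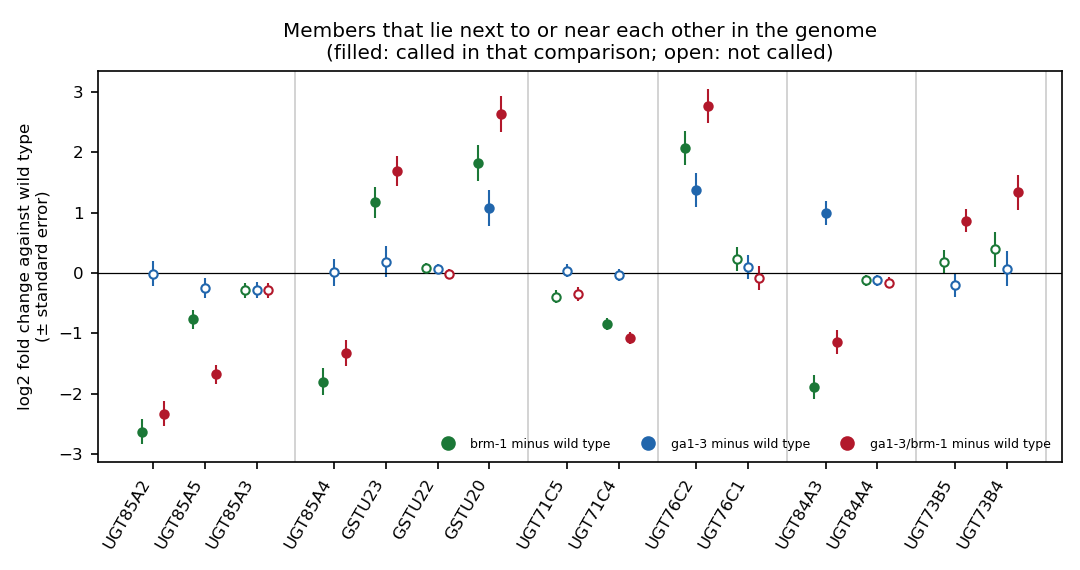
Points give the log2 fold change of each mutant against the wild type with its standard error, for members that are next to or near each other, in 6 clusters parted by grey lines. In the second cluster UGT85A4 lies below 0 in brm-1 and GSTU23 and GSTU20 above it, and in the fourth UGT76C2 lies above 0 in all mutants while UGT76C1 stays between -0.09 and 0.23.

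Of the 42 members, 23 were called in at least 1 of the 5 comparisons and 19 in none. Of the 19, 9 were near background in all genotypes and 10 were not, and the log2 differences of those 10 ran from -0.61 to 0.62. They include both sterol glucosyltransferases, UGT80A2 and UGT80B1 (2 of 3 genes listed for sterols and tyrosine breakdown), with values between -0.30 and 0.22 in the 5 comparisons. UGT88A1 had 0.04 ± 0.13 and GSTL3 0.25 ± 0.12 in the double mutant against the wild type. GSTL3 in the double mutant lay above brm-1 by 0.44 ± 0.12 (adjusted p 0.03), and GSTU27 in brm-1 lay above the wild type by 0.47 ± 0.14 (0.0367), both under the fold threshold. GSTU18 had the widest interaction among these 19, -1.0 ± 0.31 (adjusted p 0.0763), with signals of 7.46 ± 0.16 in the wild type, 7.84 ± 0.22 for brm-1, 7.85 ± 0.41 for ga1-3 and 7.23 ± 0.33 for the double mutant.

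Genes that act beside the members were taken from 5 lists of 36 genes (glutathione synthesis and recycling, ABCC transport to the vacuole, regulators of detoxification, flavonoid enzymes and jasmonate synthesis). The array annotation named only GR1 and GR2, the glutathione reductases, and neither was called. A further 10 were named through the study's tables, which list genes it found changed in these samples, so their calls are no independent evidence. Of these 12, limma called 7 up and 1 down for brm-1, 2 up and 2 down for ga1-3, and 6 up and 2 down for the double mutant. Over all probe sets 14.7%, 8.79% and 23.6% were called in that order, but genes named because they had changed cannot be compared with these shares. Of 8 ABCC genes listed 4 were named, all through the study's tables. The vacuolar transporter of glutathione conjugates ABCC2 had log2 fold changes of 1.14 ± 0.21 in brm-1 (adjusted p 0.00384), 0.68 ± 0.21 in ga1-3 (0.06) and 1.49 ± 0.21 in the double mutant (0.000415). ABCC8 rose by 1.45 ± 0.18, 1.56 ± 0.18 and 2.55 ± 0.18 in the same order. ABCC1, also a vacuolar transporter, rose by 0.76 ± 0.11, 0.75 ± 0.11 and 0.87 ± 0.11 in that order, with an interaction of -0.63 ± 0.16 (adjusted p 0.0343). ABCC5 rose in brm-1 (0.69 ± 0.17) and the double mutant (0.96 ± 0.17). Of 7 flavonoid enzymes listed, the 2 that were named went in opposite directions. F3H, flavanone 3-hydroxylase, fell by a log2 difference of -1.86 ± 0.26 in brm-1 (adjusted p 0.00079), -1.04 ± 0.26 in ga1-3 and -1.35 ± 0.26 in the double mutant, near background in all genotypes and with an interaction of 1.55 ± 0.37 (0.03), while TT5, chalcone isomerase, rose in brm-1 (0.79 ± 0.15) and the double mutant (1.3 ± 0.15). GGT4, which starts the breakdown of glutathione conjugates in the vacuole, rose in brm-1 (1.44 ± 0.13) and the double mutant (1.07 ± 0.13). GGT1, which acts on glutathione in the apoplast, fell in ga1-3 (-1.62 ± 0.15) and the double mutant (-1.42 ± 0.15). SCL14, a coactivator of detoxification genes, rose in brm-1 by 0.63 ± 0.11 (adjusted p 0.00314) and had 0.39 ± 0.11 in ga1-3 and 0.37 ± 0.11 in the double mutant, with an interaction of -0.65 ± 0.16 (adjusted p 0.0328).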

How the data were processed

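RNA from shoots was hybridized to ATH1 arrays, 3 biological replicates per genotype, and the authors deposited log2 signals after GC-RMA. Partek and GCRMA are the tools in the submitters' processing notes. The table holds 16824 probe sets, those left by the authors' detection filter. The 60 control probe sets were left out here. Arrays carry no read depth, and their number limits the precision. Values were used as deposited in R 4.3.3 with limma 3.58.1 (lmFit, eBayes, Benjamini-Hochberg over 16764 probe sets). The methods name a 2-factor ANOVA but not its second factor, so genotype alone was fitted. The fit was tested on simulated data first. Alternatives were another normalization, a replicate block, ordinary variance, a fit on 2 genotypes alone, no fold threshold, no dim probe sets, another choice of probe set and each array left out.

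Names came from the platform annotation and the TAIR10.1 gene table, and all 42 members matched by gene ID. In 3 cases a probe set of several genes held a UGT or GST and was left out. UGT72B1 and UGT80A2 appear there as GT72B1 and SGT. Members and lists were chosen with earlier results of these data known. Genes named with values are the 4 largest rises and falls among called members per comparison and family, called interactions, members of the function lists, and pathway genes that were called. A further rule for the brightest and dimmest gene of each class was not used, since signals of different probe sets cannot be compared. Outside the rule, UGT71C4, UGT72B3, UGT85A3, UGT84A4, GSTU22, GSTU27, GSTU18, GSTL3 and UGT88A1 were picked after their values were seen. Python 3.11.15 with matplotlib 3.10.9 drew the figures.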

Additional observations from a re-analysis of the deposited data

Results flagged for a closer look

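UGT73B1 stood out because its response to brm-1 differed with and without ga1-3. The log2 difference made by brm-1 was 1.81 ± 0.14 with GA1 intact (8.13, 8.04 and 8.36 against 6.67, 6.23 and 6.18) and 0.58 ± 0.14 in ga1-3 (8.17, 8.22 and 8.44 against 7.71, 7.78 and 7.61), which is an interaction of -1.24 in limma (standard error 0.20, adjusted p 0.00742). All 3 arrays were higher with brm-1 in both backgrounds.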

How the results depend on the processing

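Values of single members were recomputed for the comparisons in which a member was called. This was done under every alternative except those on the fold threshold and the probe set, and no value changed direction. Only quantile normalization and leaving out an array of a compared genotype could change a value. The other alternatives leave the difference of the means as it is, so they could not test its direction. Counts of called members that moved by over 1.5 times were as follows. Rises in the double mutant against brm-1 (5) became 3 after quantile normalization and 1 with ordinary variance. They became 2 with the arrays of both genotypes alone and 3 without the dimmest 25% of probe sets. That last fit left out UGT72E2 and UGT73B4, so their calls were not tested in it. The fall in the double mutant against brm-1 (1) became 0 with the arrays of both genotypes alone. Rises in the double mutant against ga1-3 (12) became 7 and the fall in ga1-3 (1) became 0 with ordinary variance. Each member had 1 probe set, so the choice of probe set could change nothing.

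The labels do not say whether arrays with the same replicate number belong together. Deviations of arrays with the same number correlated at -0.198 to 0.119 over 18 pairs, 1 of them over 0.1. For arrays with other numbers the range was -0.193 to 0.243. Arrays with the same number were thus not more alike by this measure, which cannot show that they shared no batch. With the number as a block, rises in the double mutant against brm-1 were 3. The calls of GSTU20 in ga1-3, GSTF4 and UGT87A2 against ga1-3, and UGT73B5 and UGT84A3 against brm-1 were lost, and no other member's was.

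Leaving out each of the 12 arrays gave these ranges. In brm-1, 5 to 8 rises and 6 to 7 falls, in ga1-3, 4 to 6 and 0 to 1, and in the double mutant, 10 to 13 and 5 to 6. Against ga1-3 the double mutant had 7 to 12 rises (7 without ga1-3 replicate 3) and 5 to 6 falls. Against brm-1 it had 1 to 7 rises (1 without wild-type replicate 3, brm-1 replicate 2 or double mutant replicate 3, and 7 without brm-1 replicate 3) and 1 to 2 falls. The interaction had 1 to 4. Of 1041 values of single member calls under all alternatives, 900 kept their call and 141 lost it, 110 of these with 1 array left out. The limits are 3 arrays per genotype, a table that holds only detected probe sets, and 14 members near background in all genotypes, 5 of them called.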
